A study of Mus musculus with 4 samples.

Results

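Genes of retinoic acid synthesis, breakdown and binding were followed through single-cell RNA sequencing of mouse brown adipose tissue. The group was a fixed list of 8 genes out of 32285 in the count files, found by symbol: Rdh10, Aldh1a1, Aldh1a2 and Aldh1a3 on the synthesis side, Cyp26b1 on the breakdown side, the receptors Rara and Rarb, and Rbp4, which carries retinol in blood. Unique molecular identifiers (UMIs, one per captured transcript) were read from the cells of the stromal vascular fraction, the cells left after the lipid-filled adipocytes are removed, and the study compared lean mice with genetically and diet-induced obese mice. Each of the 4 groups is 1 library, made from a pool of 3 mice, so there was no replicate, no test between groups was possible and no p-value is given.

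All 4 groups carry the strain label C57BL6/J. The lean group (WT) is labelled wild type, 10 weeks old. The groups 8-week and 16-week db/db (8w and 16w in the plots) are homozygous for the db allele of the leptin receptor gene Lepr, labelled 8 and 16 weeks old, and become obese and diabetic on ordinary food. The fourth group (HFD) was fed a high-fat diet; its label gives 10 weeks, while the methods start the diet at that age, so its age at sampling is unclear. Neither db/db library has a lean littermate library of its own age, and genotype, age and library cannot be told apart. The db mutation changes splicing, so a 3' count of Lepr checks no label.

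After filtering, 28887 cells were kept, 5462 to 11648 per library, with 2733 to 6218.5 UMIs in the median cell. The 16-week db/db library stood apart: its summed counts of the transcript Xist, made from the inactive X chromosome, were 207 UMIs per 1000000 (CPM, counts scaled to the UMIs of the cells summed) against at most 0.69 in the other libraries, although the methods name male mice, and its haemoglobin genes reached 10812 CPM against 41.1 to 517 CPM. Genes of the Y chromosome summed to 17.7 CPM in 16-week db/db, against 164 to 188 CPM in the other libraries. Sex, too, thus cannot be told apart from genotype and age in comparisons with that library. In HFD, 68.5% of barcodes were over the mitochondrial limit, against 1.04% to 35.6% in the other libraries. Between 7 and 25 cell barcodes were shared by any pair of libraries. The methods place a cell sort before the libraries without naming its gate, and shares of cells depend on it.

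Retinoic acid is a vitamin A derivative that acts as a hormone inside the cell. Retinol, carried in blood by Rbp4, is oxidised to retinal by retinol dehydrogenases such as Rdh10, and retinal is oxidised irreversibly to retinoic acid by the retinaldehyde dehydrogenases Aldh1a1, Aldh1a2 and Aldh1a3. Retinoic acid binds the nuclear receptors Rara, Rarb and Rarg, which pair with retinoid X receptors on DNA, and Cyp26 enzymes such as Cyp26b1 break it down; in adipose tissue this pathway is known for its effects on the formation of fat cells and on heat production.

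Cells were placed in lineage gates by raw UMIs of marker genes, none of which is a member of the group. A gate took cells with at least 3 UMIs of its own marker list and at least 75% of all lineage-marker UMIs from that list. The stromal gate (Pdgfra, Dpt, Lum, Fbn1, Serpinf1, Col6a3) held 4152 cells in WT, 5448 in 8-week db/db, 1111 in 16-week db/db and 1461 in HFD, which is 69.9%, 46.8%, 19.0% and 26.7% of the cells. The monocyte/macrophage gate held 1319, 3392, 2454 and 1657 cells in the same order. All 6 stromal markers were found in the stromal gate of every library, at a summed 6353 to 9186 CPM.

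In WT the stromal gate held 97.1% of all Aldh1a1 UMIs, 96.6% of Aldh1a3, 95.4% of Cyp26b1, 98.7% of Rarb, 97.7% of Rbp4 and 90.2% of Rdh10. Aldh1a2 was the exception, with 66.4% of its WT UMIs in the monocyte/macrophage gate and 1 UMI (0.935%) in the stromal gate. Rara was spread over lineages, with 63.5% of its WT UMIs in stromal and 27.7% in monocyte/macrophage-gated cells. In the other libraries, which held fewer stromal cells, the stromal share stayed at 77.8% to 93.7% for Aldh1a1 and Aldh1a3 and at 63.5% to 91.7% for Cyp26b1. It was lower for Rdh10, at 74.4% in 8-week db/db, 22.2% in 16-week db/db (57.9% monocyte/macrophage) and 30.9% in HFD. For Rarb it was 79.1%, 44.2% and 31.6%, beside 33.3% in the endothelial gate of HFD, and for Rbp4 93.4%, 86.8% and 54.3%.

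Levels over whole libraries follow the stromal share of cells as well as the level within it. Over all cells, Aldh1a1 stood at 91.4 CPM in WT, 42.6 CPM in 8-week db/db, 21.6 CPM in 16-week db/db and 23.7 CPM in HFD. In such a sum, fewer cells of a type and less RNA per cell cannot be told apart. Cyp26b1 was higher over all cells in each obese library, with 11.2 CPM in WT, 38.4 CPM in 8-week db/db, 43.8 CPM in 16-week db/db and 19.8 CPM in HFD. The values that follow are within gates.

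**Figure D1:**
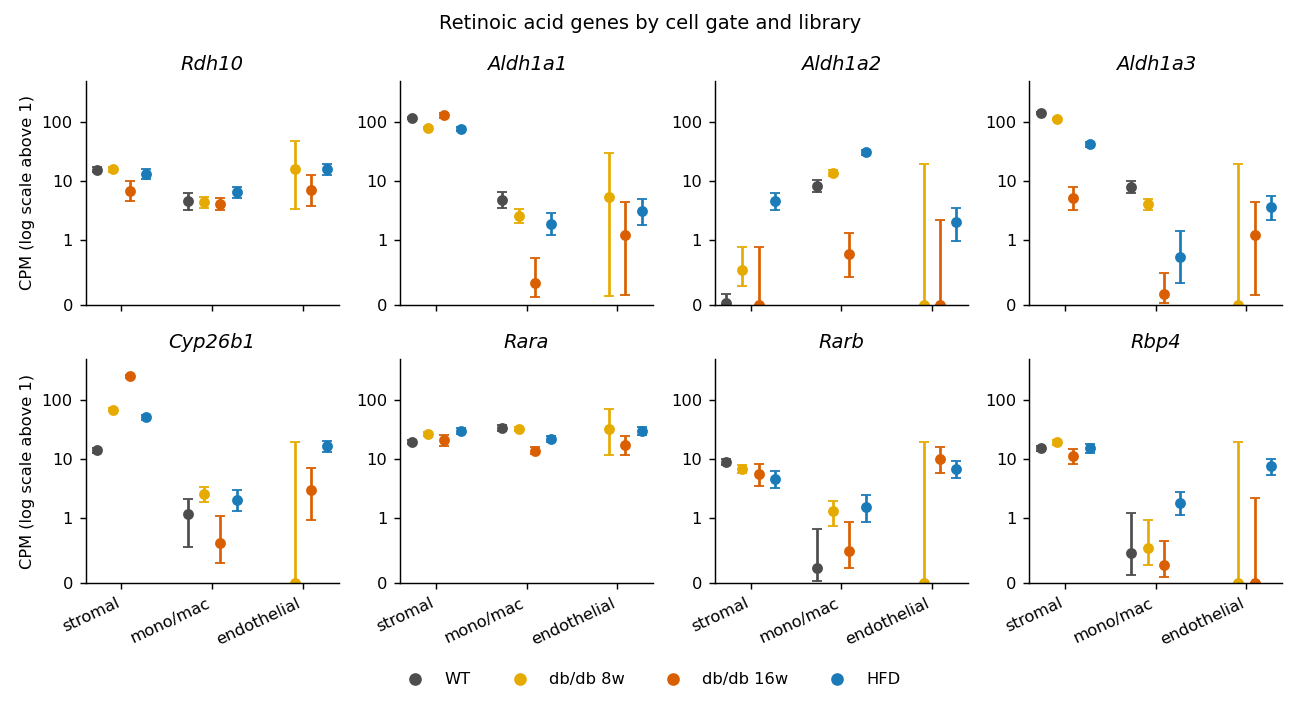
Level of each gene in CPM (log scale above 1, linear below) in stromal, monocyte/macrophage and endothelial gates of at least 50 cells, coloured by library; bars are 95% Poisson intervals for counting error. Aldh1a1, Aldh1a3 and Cyp26b1 sit highest in the stromal gate of each library, Aldh1a2 in the monocyte/macrophage gate, and Rara at 13.9 to 33.6 CPM in the stromal and monocyte/macrophage gates.

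Rdh10 (ENSMUSG00000025921, plus strand, chr1:16105774-16133734, GRCm38), a membrane-bound retinol dehydrogenase that makes retinal, was lower in the stromal gate of 16-week db/db than in the other libraries. Its stromal level was 15.5 CPM in WT (95% Poisson interval 14.2 to 16.9, 531 UMIs), 15.7 CPM in 8-week db/db (14.2 to 17.3), 6.76 CPM in 16-week db/db (4.49 to 9.77, 28 UMIs) and 13.0 CPM in HFD (10.6 to 15.7). These and all later intervals cover counting error only. The interval of 16-week db/db did not reach those of the other 3 libraries, which overlapped one another. The log2 ratio to WT was 0.02 (-0.17 to 0.20) in 8-week db/db, -1.20 (-1.80 to -0.65) in 16-week db/db and -0.26 (-0.58 to 0.05) in HFD.

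Aldh1a1 (ENSMUSG00000053279, plus strand, chr19:20492715-20643465), a cytosolic retinaldehyde dehydrogenase, stayed within 2-fold of WT in stromal-gated cells. Its level was 117 CPM in WT (113 to 120, 3997 UMIs), 78.6 CPM in 8-week db/db (75.3 to 82.1), 130 CPM in 16-week db/db (119 to 141) and 77.6 CPM in HFD (71.6 to 84.0). WT and 16-week db/db were high, and 8-week db/db and HFD were low with overlapping intervals. The log2 ratio to WT was -0.57 (-0.65 to -0.49), 0.15 (0.02 to 0.28) and -0.59 (-0.71 to -0.47) for 8-week db/db, 16-week db/db and HFD. The gene overlaps C730002L08Rik on the opposite strand. Its near-identical paralog Aldh1a7 had 1, 2, 4 and 35 UMIs over all cells of WT, 8-week db/db, 16-week db/db and HFD, so few reads were assigned to that copy; reads matching both copies are not counted by the software used.

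Thinned to 1000 UMIs per cell, so that depth was equal, 10.4% of stromal cells had an Aldh1a1 UMI in WT, 7.48% in 8-week db/db, 13.7% in 16-week db/db and 8.21% in HFD. Without thinning the shares were 48.7%, 26.6%, 33.7% and 31.0%. The share in macrophage-gated cells, read as the level of free RNA, was 0.541%, 0.391%, 0 of 2362 cells (which allows up to 0.127%) and 0.241% after thinning. In all 135 T cell-gated cells there was no Aldh1a1 UMI, which allows a share of up to 2.22%. Aldh1a1 was thus found in stromal cells of each library above the share in cells of another lineage. Thinning left out 65, 620, 92 and 0 stromal cells of WT, 8-week db/db, 16-week db/db and HFD.

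Aldh1a3 (ENSMUSG00000015134, minus strand, chr7:66390890-66427517), a second retinaldehyde dehydrogenase, had the lowest stromal ratio to WT among the members with at least 20 UMIs, in 16-week db/db. Its stromal level was 142 CPM in WT (138 to 146, 4857 UMIs), 114 CPM in 8-week db/db (110 to 119), 5.07 CPM in 16-week db/db (3.14 to 7.75, 21 UMIs) and 41.6 CPM in HFD (37.3 to 46.4). No 2 intervals overlapped. The log2 ratio to WT was -0.31 (-0.37 to -0.24), -4.81 (-5.50 to -4.19) and -1.77 (-1.93 to -1.61). Thinned to 1000 UMIs, 12%, 8.76%, 0.491% and 3.49% of stromal cells had a UMI of the gene, against 1.0%, 0.391%, 0 of 2362 and 0.121% of macrophage-gated cells.

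Cyp26b1 (ENSMUSG00000063415, minus strand, chr6:84571414-84593908), a cytochrome P450 that degrades retinoic acid, was higher in the stromal gate of all 3 obese libraries. Its level was 14.1 CPM in WT (12.8 to 15.4, 482 UMIs), 69.1 CPM in 8-week db/db (66.0 to 72.4, 1831 UMIs), 257 CPM in 16-week db/db (242 to 273, 1066 UMIs) and 51.7 CPM in HFD (46.8 to 56.9, 411 UMIs). The ratio to WT was 4.92-fold (4.44 to 5.45) in 8-week db/db, 18.3-fold (16.4 to 20.4) in 16-week db/db and 3.67-fold (3.21 to 4.20) in HFD. Between obese libraries, 16-week db/db was above 8-week db/db by a log2 ratio of 1.90 (1.79 to 2.01) and above HFD by 2.32 (2.15 to 2.48). The order was WT, HFD, 8-week db/db, 16-week db/db, with no neighbours whose intervals met.

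The share of stromal cells with a Cyp26b1 UMI was also higher in the obese libraries. After thinning, 1.0% of stromal cells had a UMI in WT, 5.57% in 8-week db/db, 18.1% in 16-week db/db and 3.76% in HFD, beside 0.155%, 0.358%, 0.0423% and 0.0604% of macrophage-gated cells. Single cells weighed on the WT level: the 10 highest cells held 34.6% of the WT UMIs, against 8.90%, 16.4% and 15.1% in the other libraries. Markers of mural cells, the contractile cells of vessel walls, were also higher in the stromal gate of the obese libraries, at a summed 2.60, 19.9, 127 and 124 CPM over 6 markers, of which none was at 0 in any library; their part in the Cyp26b1 level was not tested.

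**Figure D2:**
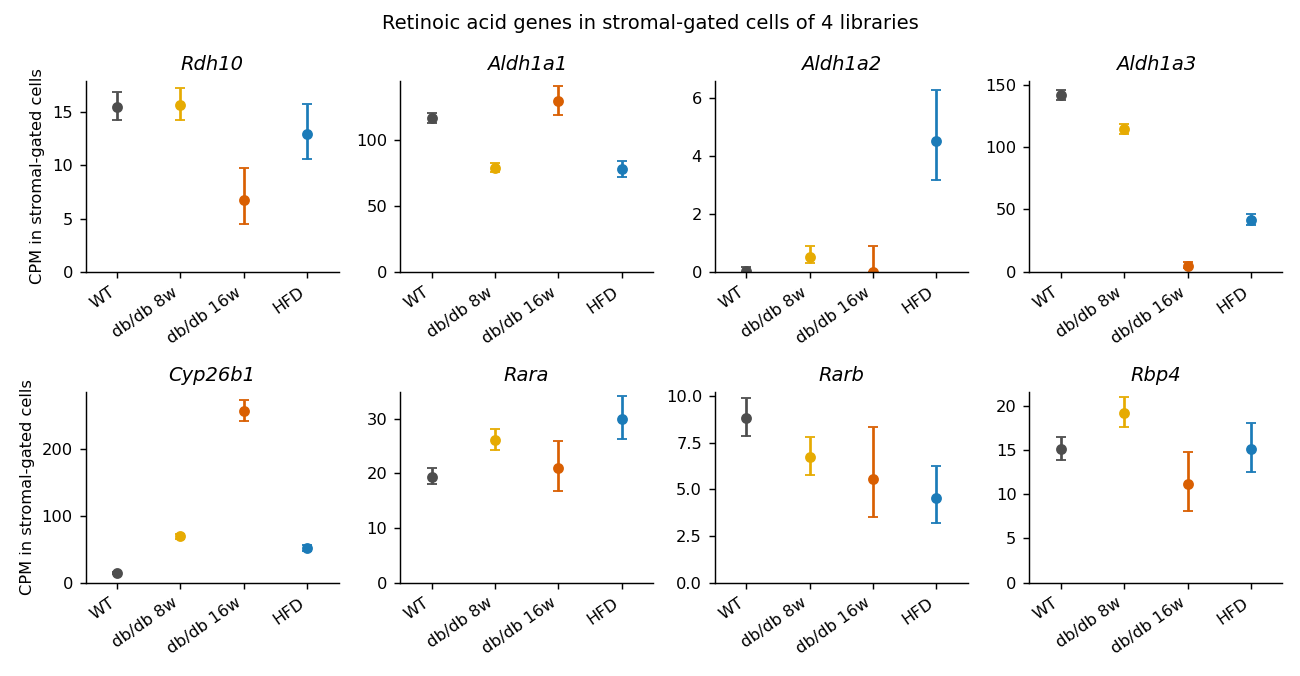
Level of each of the 8 genes in CPM in stromal-gated cells of the 4 libraries, each panel on its own axis from 0; points are sums over cells and bars 95% Poisson intervals. Cyp26b1 is highest in 16-week db/db at 257 CPM, where Aldh1a3 is lowest at 5.07 CPM.

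Retinoic acid receptors are known to bind pairs of half-sites, and the promoters in the RefSeq table (GRCm38.p6) were searched on both strands for direct repeats built from the half-sites AGGTCA or AGTTCA or GGTTCA or GGGTCA. Of the 8 members, 6 were in the table, with 11 promoters. A repeat spaced by 5 bases was present in 32 of 32851 promoters (0.0974%), and among the members in that of Rarb alone. The promoters of Rarb (chr14:16575477-16575726, minus strand) and Cyp26b1 (chr6:84593811-84594060, minus strand) are shown because both genes are textbook targets of retinoic acid. Over the whole stromal gate their levels differed from WT in opposite directions, though for Rarb not under every alternative of the closing section. The promoter of Cyp26a1 (chr19:37697558-37697807, plus strand), the other well-known target among the breakdown enzymes, is shown for comparison. Each sequence is the 250 bases before the annotated start, 5' to 3'. Capitals mark the direct repeat in Rarb and Cyp26a1 (reverse strand in the latter) and the letters TATAAA in Cyp26b1, which 13.6% of all promoters hold.
Rarb: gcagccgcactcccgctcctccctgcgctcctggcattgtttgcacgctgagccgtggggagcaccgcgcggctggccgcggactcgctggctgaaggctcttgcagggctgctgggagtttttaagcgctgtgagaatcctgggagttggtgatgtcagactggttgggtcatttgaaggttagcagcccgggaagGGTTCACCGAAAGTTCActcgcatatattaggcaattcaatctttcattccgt
Cyp26b1: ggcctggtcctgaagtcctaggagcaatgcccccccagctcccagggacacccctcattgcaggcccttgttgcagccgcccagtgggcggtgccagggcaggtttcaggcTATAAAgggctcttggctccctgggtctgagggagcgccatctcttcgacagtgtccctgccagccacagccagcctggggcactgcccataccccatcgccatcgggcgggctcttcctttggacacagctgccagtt
Cyp26a1: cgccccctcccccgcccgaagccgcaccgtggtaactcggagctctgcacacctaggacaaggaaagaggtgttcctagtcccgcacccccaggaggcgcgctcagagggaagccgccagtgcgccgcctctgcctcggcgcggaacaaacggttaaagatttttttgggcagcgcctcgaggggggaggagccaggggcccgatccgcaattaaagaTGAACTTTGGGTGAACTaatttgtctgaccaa
The repeat of Rarb lay at positions -53 to -37 from the start and that of Cyp26a1 at -32 to -16. No such repeat lay in the Cyp26b1 window, which says only that these letters are not in it. Repeats spaced by 2 bases were in 88 promoters (0.268%) and by 1 base in 73 promoters (0.222%), none of them of a member.

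Stromal cells were next split by marker UMIs into subsets, since their make-up differed between libraries. A subset took stromal-gated cells with at least 3 UMIs of its own list and at least 2 times the UMIs of every other subset list. The subset led by Pi16 and Dpp4 (with Cd55, Sema3c, Anxa3 and Wnt2) held 1642, 1057, 16 and 133 cells, which is 39.5%, 19.4%, 1.44% and 9.10% of the stromal cells of WT, 8-week db/db, 16-week db/db and HFD. The subset led by Col15a1 and Col4a1 (with Col4a2, Icam1 and Pparg) held 397, 1879, 875 and 926 cells, which is 9.56%, 34.5%, 78.8% and 63.4%. Pi16 and Dpp4 mark fibroblast progenitors, and Col15a1 and Pparg mark cells closer to the fat lineage.

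Aldh1a3 was higher in the Pi16 Dpp4 subset than in the Col15a1 Col4a1 subset. There its level was 206 CPM in WT (199 to 214), 428 CPM in 8-week db/db (410 to 446) and 414 CPM in HFD (364 to 469); in 16-week db/db, 12 UMIs in 16 cells gave 302 CPM (156 to 527). In the Col15a1 Col4a1 subset it was 5.66, 4.64, 1.38 and 2.65 CPM. The ratio of the first subset to the second was 36.4-fold in WT, 92.2-fold in 8-week db/db and 156-fold in HFD. So within the Pi16 Dpp4 subset Aldh1a3 was higher in 8-week db/db and HFD than in WT, by log2 ratios of 1.05 (0.97 to 1.13) and 1.01 (0.81 to 1.19), while over the whole stromal gate it was lower in both. Cells of no subset held 119 CPM in WT (1593 of the 4857 stromal UMIs), 79.3 in 8-week db/db, 6.88 in 16-week db/db and 34.4 in HFD, lower than WT by log2 ratios of -0.58, -4.11 and -1.79. In WT it was also 106 CPM in the subset led by Has1, Ptx3 and Tnfaip6 and 96.2 CPM in that led by Meg3 and Nova1.

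Weighting the subsets of each library by their UMI shares in WT, an alternative added after the data were seen, turned the direction over the whole gate in 8-week db/db and HFD and brought 16-week db/db near WT. On log2 of CPM with 1 CPM added, the ratio of Aldh1a3 to WT was 0.63 in place of -0.31 in 8-week db/db, -0.02 in place of -4.56 in 16-week db/db and 0.50 in place of -1.74 in HFD. The 16-week db/db value rests on 16 cells of the Pi16 Dpp4 subset. Cyp26b1 stayed higher in all 3 libraries under this weighting, at 1.46 in place of 2.22, 2.92 in place of 4.10 and 1.11 in place of 1.81. For Aldh1a1 the weighted values were -0.58, -0.62 and -0.45 against -0.56, 0.15 and -0.58. Rarb stood at -0.30, -1.50 and -0.05 in place of -0.35, -0.59 and -0.83. The weighting also gave another sign to Rara in 16-week db/db (-0.63 in place of 0.11), to Rdh10 in HFD (0.27 in place of -0.24) and to Rbp4 in 8-week db/db (-0.07 in place of 0.33). Rbp4 in HFD was at -0.63 in place of 0.00. In 16-week db/db, Rdh10 was at -1.85 in place of -1.09 and Rbp4 at -1.67 in place of -0.41. The 16 cells named above held 0 UMIs of Rdh10, Rara, Rarb, Rbp4 and Cyp26b1, where the floor was 75.5 CPM. They held 2 UMIs of Aldh1a1. The weighted 16-week db/db values of these genes thus rest in part on empty or nearly empty counts, and their signs and sizes are uncertain.

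**Figure D3:**
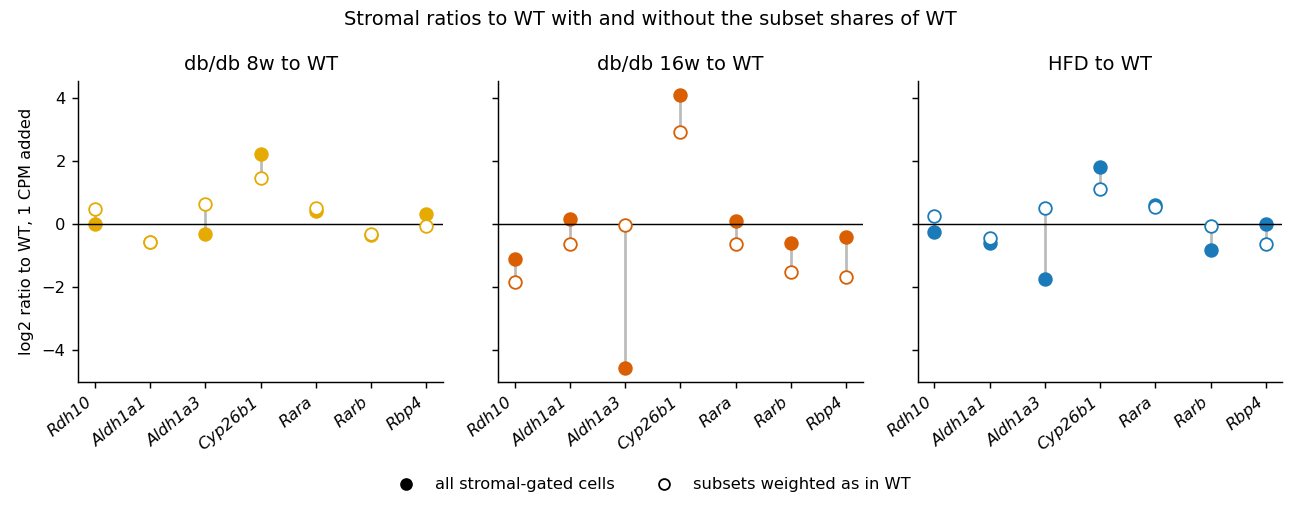
Log2 ratio to WT (1 CPM added) for 7 genes in each obese library: filled points are all stromal-gated cells, open points the same with subsets weighted as in WT. Aldh1a3 moves furthest, from -4.56 to -0.02 in 16-week db/db, while Cyp26b1 stays above 0 in all 3 panels.

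Cyp26b1 had the opposite distribution, with its highest WT level in the Col15a1 Col4a1 subset. There it was 54.4 CPM in WT (47.0 to 62.6), 116 CPM in 8-week db/db (110 to 123), 269 CPM in 16-week db/db (252 to 286) and 57.4 CPM in HFD (51.1 to 64.3). Against WT the log2 ratio was 1.09 (0.87 to 1.32) in 8-week db/db and 2.31 (2.08 to 2.54) in 16-week db/db, and in HFD it was 0.08 (-0.19 to 0.35), so the HFD level overlapped that of WT. In the Pi16 Dpp4 subset it was 1.68 CPM in WT, 4.35 CPM in 8-week db/db and 3.33 CPM in HFD, the last from 2 UMIs. Cells of no subset held 16.6, 57.4, 188 and 50.1 CPM, so in these cells HFD was above WT.

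Stromal cells with a Cyp26b1 UMI were compared with those without, as a description. They were deeper in each library, with median UMIs of 8523.5 against 7097.5 in WT, 5652 against 3678 in 8-week db/db, 3745 against 2441 in 16-week db/db and 5817 against 4886 in HFD, and the part of depth was not tested. Pi16 was lower in them in all 4 libraries, with 580 against 2279 CPM in WT and 25.2 against 128 CPM in 16-week db/db. Col15a1, a basement membrane collagen, was higher in them in WT (253 against 51.0 CPM) and in 8-week db/db (740 against 405 CPM), and it was 1000 against 946 CPM in 16-week db/db and 805 against 846 CPM in HFD. In 16-week db/db they had more of the contractile genes Acta2 (201 against 37.1 CPM) and Tagln (144 against 19.0 CPM). The direction was the same in 8-week db/db (Acta2 23.1 against 4.05 CPM, Tagln 12.4 against 5.39 CPM). It was also the same in HFD (Acta2 22.5 against 9.52 CPM, Tagln 34.5 against 14.4 CPM). In WT both genes were at 0 CPM in cells with a Cyp26b1 UMI. Mki67, a marker of dividing cells, was higher in cells with a Cyp26b1 UMI in all 4 libraries, at 41.3 against 11.7 CPM in WT, 28 against 13 in 8-week db/db, 73.0 against 12.5 in 16-week db/db and 92.3 against 23.7 in HFD.

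**Figure D4:**
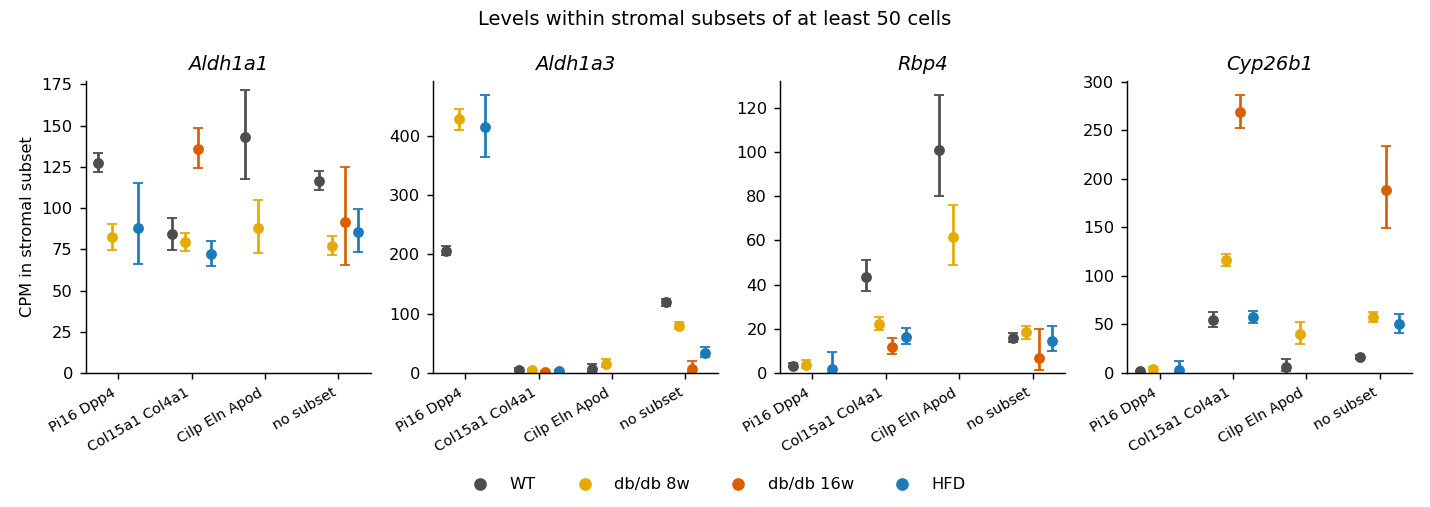
Levels of 4 genes in CPM by stromal subset of at least 50 cells and by library, with 95% Poisson intervals; each axis starts at 0. Aldh1a3 is high in the Pi16 Dpp4 subset of WT, 8-week db/db and HFD (206, 428 and 414 CPM), Cyp26b1 in the Col15a1 Col4a1 subset and Rbp4 in the Cilp Eln Apod subset.

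Aldh1a1 was spread over the subsets. It was 127, 82.3 and 88.1 CPM in the Pi16 Dpp4 subset of WT, 8-week db/db and HFD and 84.1, 79.5, 136 and 72.2 CPM in the Col15a1 Col4a1 subset of the 4 libraries. Rdh10 was higher in the Pi16 Dpp4 than in the Col15a1 Col4a1 subset, by 2.28-fold in WT, 4.43-fold in 8-week db/db and 2.26-fold in HFD, with 17.5, 33.1 and 26.6 CPM in the former. In 16-week db/db its 25 UMIs in the Col15a1 Col4a1 subset gave 6.91 CPM (4.47 to 10.2), beside 7.65 CPM (5.04 to 11.1) in WT, so within that subset the intervals overlapped. Cells with both Aldh1a1 and Aldh1a3 after thinning were 1.35% of stromal cells in WT and 0.953% in 8-week db/db, where the product of the single shares gives 1.24% and 0.655%. In HFD it was 0.274% beside 0.287%, none of 1019 cells in 16-week db/db had both, and within the Pi16 Dpp4 subset of WT it was 1.48% beside 1.72%, so the order of both values differed between libraries and gates.

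Aldh1a2 (ENSMUSG00000013584, plus strand, chr9:71215789-71296243) is the retinaldehyde dehydrogenase known from retinoic acid-producing myeloid cells and mesothelium. Here it was found in macrophage- and dendritic-gated cells and also in cells of no gate. The latter held 29.0%, 23.0%, 0% and 19.4% of its UMIs in WT, 8-week db/db, 16-week db/db and HFD. No cell entered the mesothelial gate. In the monocyte/macrophage gate Aldh1a2 stood at 8.19 CPM in WT (6.40 to 10.3, 71 UMIs), 13.7 CPM in 8-week db/db (12.1 to 15.4, 281 UMIs), 0.771 CPM in 16-week db/db (0.421 to 1.29, 14 UMIs) and 30.4 CPM in HFD (27.4 to 33.7, 375 UMIs). HFD was highest and 16-week db/db lowest, with no overlap. The log2 ratio to WT was 0.74 (0.36 to 1.14), -3.41 (-4.35 to -2.57) and 1.89 (1.52 to 2.28). Thinned, 3.20% of the HFD cells had a UMI, beside 0.618%, 0.716% and 0 of 2362 cells in the other libraries.

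Macrophage-gated cells with an Aldh1a2 UMI had more Ear2, Lyz1 and Fn1 in all 4 libraries, and the gate was therefore split, after the data were seen, by at least 3 UMIs of Ear2 and Lyz1 together. Such cells numbered 103, 469, 144 and 384, or 7.81%, 13.8%, 5.87% and 23.2% of the gate. Aldh1a2 was 30.7, 48.5, 4.21 and 90.1 CPM in them and 4.44, 1.83, 0.530 and 8.43 CPM in the other macrophage-gated cells. They were higher by 6.92-fold, 26.5-fold, 7.95-fold and 10.7-fold; since the split was chosen from these values, this is a description. Over all libraries their median depth was 8604 UMIs against 4993 in the others, and the part of depth was not tested. The summed level of 6 dendritic markers in the whole gate was 53.8, 38.1, 2.53 and 10.5 CPM, with 3 of 6 at 0 in 16-week db/db. Their part in the Aldh1a2 level was not tested.

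Dendritic-gated cells were few, with 16, 40, 14 and 34 cells in WT, 8-week db/db, 16-week db/db and HFD, and held 4, 13, 1 and 39 Aldh1a2 UMIs. Their level was 22.8 CPM (6.20 to 58.3), 51.3 CPM (27.3 to 87.8), 16.5 CPM (0.417 to 91.7) and 233 CPM (165 to 318). HFD was above WT and 8-week db/db beyond the intervals. Ccr7 is a receptor of migrating dendritic cells and a marker of the gate. Over all 4 libraries, the 60 cells with a Ccr7 UMI held 55 of the 57 UMIs at 155 CPM (117 to 202), and the 44 without it held 2. For the gate markers Clec9a, Cd209a and Xcr1 the direction was the other way. Aldh1a2 was 16.2 against 149 CPM with and without Clec9a, 15.5 against 104 for Cd209a, and 52.5 against 107 for Xcr1. HFD held 39 of the 57 UMIs, so marker and library are mixed in these sums. Of the HFD dendritic-gated cells, 32.4% were among the predicted doublets.

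In the stromal gate Aldh1a2 had 1, 14, 0 and 36 UMIs, so its HFD level of 4.53 CPM (3.17 to 6.27) was above WT by a log2 ratio of 7.28 (4.71 to 12.6), a ratio to a single UMI. The summed monocyte/macrophage markers in the stromal gate were 79.4, 138, 42.5 and 247 CPM, highest and lowest in the same libraries, and none of the 8 markers was at 0; their part in the stromal Aldh1a2 level was not tested.

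**Figure D5:**
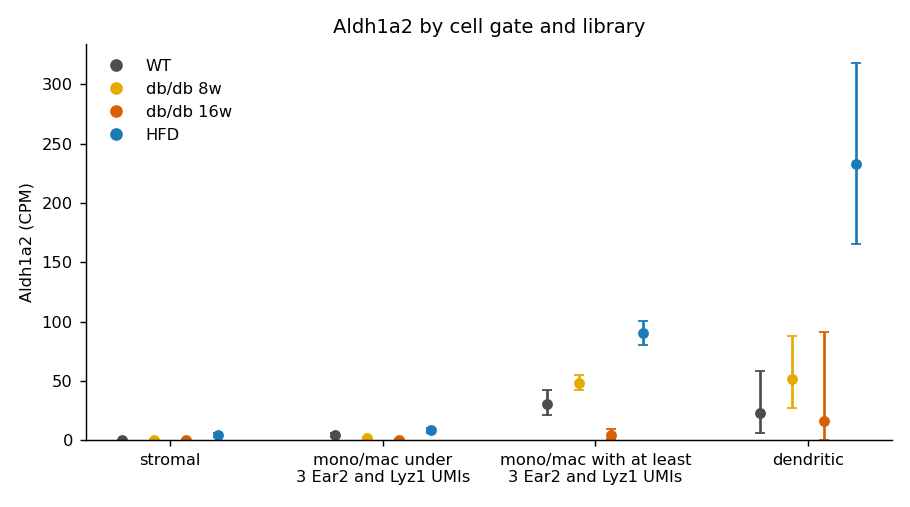
Aldh1a2 level in CPM in stromal, macrophage-gated (split by Ear2 and Lyz1 UMIs) and dendritic-gated cells of each library, with 95% Poisson intervals. Values are highest in HFD, at 90.1 CPM in the Ear2 Lyz1 macrophage-gated cells and 233 CPM in the 34 dendritic-gated cells.

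Of the receptors, Rara (ENSMUSG00000037992, plus strand, chr11:98927818-98974942) was measured in stromal cells of all libraries within 1.55-fold of WT. It stood at 19.4 CPM in WT (18 to 21), 26.2 CPM in 8-week db/db (24.3 to 28.2), 21.0 CPM in 16-week db/db (16.8 to 25.9) and 30.1 CPM in HFD (26.4 to 34.1). The 8-week db/db and HFD intervals lay above that of WT, with log2 ratios of 0.43 (0.28 to 0.59) and 0.63 (0.41 to 0.84), and that of 16-week db/db was 0.11 (-0.23 to 0.44). In the monocyte/macrophage gate it was 33.6, 32.0, 13.9 and 22.2 CPM, lower in 16-week db/db by a log2 ratio of -1.27 (-1.52 to -1.02) and in HFD by -0.60 (-0.84 to -0.35).

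Rarb (ENSMUSG00000017491, minus strand, chr14:16430839-16819156), the receptor whose own gene is a textbook target of retinoic acid and whose promoter holds the repeat shown above, was not higher in the stromal gate of the obese libraries. Its stromal level was 8.84 CPM in WT (7.87 to 9.89, 303 UMIs), 6.72 CPM in 8-week db/db (5.77 to 7.78), 5.55 CPM in 16-week db/db (3.52 to 8.33, 23 UMIs) and 4.53 CPM in HFD (3.17 to 6.27, 36 UMIs). WT was highest, and the intervals of the 3 obese libraries overlapped. The log2 ratio to WT was -0.40 (-0.67 to -0.12), -0.67 (-1.35 to -0.06) and -0.97 (-1.51 to -0.46). In the monocyte/macrophage gate it was 0.231 CPM in WT (2 UMIs), 1.32 in 8-week db/db, 0.495 in 16-week db/db and 1.54 in HFD, with log2 ratios to WT of 2.51 (0.52 to 5.63), 1.10 (-1.17 to 4.35) and 2.74 (0.69 to 5.89). In the Pi16 Dpp4 subset it was 9.0 CPM in WT, 7.57 CPM in 8-week db/db and 13.3 CPM in HFD (8 UMIs). The log2 ratios to WT there were -0.25 and 0.56, with intervals covering both signs. In the Col15a1 Col4a1 subset, at 7.08 CPM in WT, they were -0.02, -0.29 and -1.05 for 8-week db/db, 16-week db/db and HFD. Of these, only the last had an interval (-2.01 to -0.12) wholly below WT. Cells of no subset were lower in 8-week db/db, at -0.68 (-1.18 to -0.20). The gene overlaps Top2b and Gm48162 on the opposite strand. In endothelial-gated cells, which numbered 19, 82, 1313 and 1152, it was 10.1 CPM (5.86 to 16.1) in 16-week db/db and 6.76 CPM (4.79 to 9.28) in HFD.

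Rbp4 (ENSMUSG00000024990, minus strand, chr19:38116629-38125281), made mainly by liver and also by fat cells, was 15.1 CPM in the stromal gate of WT (13.8 to 16.4), 19.2 CPM in 8-week db/db (17.5 to 20.9), 11.1 CPM in 16-week db/db (8.13 to 14.8, 46 UMIs) and 15.1 CPM in HFD (12.5 to 18). The 8-week db/db library lay above WT with a log2 ratio of 0.35 (0.17 to 0.53), 16-week db/db was at -0.44 (-0.91 to -0.01), and HFD was at 0.00 (-0.30 to 0.29). Among subsets of at least 50 cells it was highest in that led by Cilp, Eln and Apod, at 101 CPM in WT (80.2 to 126) and 61.3 CPM in 8-week db/db (48.8 to 76.0). In the Col15a1 Col4a1 subset it was 43.6 CPM in WT (37.0 to 51.1) and 22.3, 11.9 and 16.5 CPM in 8-week db/db, 16-week db/db and HFD, log2 ratios of -0.97 (-1.26 to -0.66), -1.88 (-2.40 to -1.38) and -1.40 (-1.80 to -1.01). The gene was lower there in each obese library, while over the whole gate it was lower in 16-week db/db alone.

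Part of the Rbp4 count came from few cells with transcripts of fat cells. Stromal-gated cells with at least 3 UMIs of Adipoq, Plin1 and Car3 numbered 19, 22, 7 and 41 and held 4.26%, 13.4%, 65.2% and 27.5% of the stromal Rbp4 UMIs; in 16-week db/db, 1 cell held 23 of the 46 UMIs. Without them, an alternative added after the data were seen, the level was 14.6, 16.7, 3.92 and 11.3 CPM. Hence the 16-week db/db value rests largely on 7 cells. Brown adipocyte markers in the stromal gate summed to 5.08, 15.7, 42.7 and 97.6 CPM.

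Counted together, few members passed a 2-fold limit in the stromal gate of 8-week db/db. The limit was a log2 difference of at least 1 with 1 CPM added, among genes with at least 20 UMIs over both libraries. In 8-week db/db, 1 of the 7 members tested passed it (Cyp26b1, higher), where 6.96% of all genes did; in 16-week db/db, 3 of 7 passed (Cyp26b1 higher, Aldh1a3 and Rdh10 lower), where 25.7% of all genes did; in HFD, 3 of 8 passed (Cyp26b1 and Aldh1a2 higher, Aldh1a3 lower), where 18.2% did. Aldh1a2 missed the UMI minimum in both db/db comparisons. The median log2 difference of the members was 0.02, -0.41 and -0.12, and that of all genes 0.03, -0.08 and 0.08. Since the members were taken with earlier results known and all 3 comparisons share the WT library, these counts are descriptions.

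Within the Pi16 Dpp4 subset the only member past the limit was Aldh1a3, higher in 8-week db/db (1 of 7 members, against 6.23% of all genes) and in HFD (1 of 7, against 19.4%). Within the Col15a1 Col4a1 subset, 1 of 7 passed in 8-week db/db (Cyp26b1 higher, 9.01% of all genes), 3 of 7 in 16-week db/db (Cyp26b1 higher, Aldh1a3 and Rbp4 lower, 24.4%) and 2 of 8 in HFD (Aldh1a2 higher, Rbp4 lower, 17.2%). In the monocyte/macrophage gate, 0 of 7 passed in 8-week db/db (10.2% of all genes), 4 of 6 in 16-week db/db, all lower (Aldh1a1, Aldh1a2, Aldh1a3 and Rara, 40.9%), and 3 of 8 in HFD (Aldh1a2 and Rarb higher, Aldh1a3 lower, 23.5%; Rarb had 2 UMIs in WT). For Aldh1a1 and Aldh1a3 the macrophage-gate levels were at most 4.73 and 7.84 CPM, and the stromal markers in that gate summed to 230, 160, 12.7 and 134 CPM in WT, 8-week db/db, 16-week db/db and HFD, lowest in the same library; their part in these values was not tested.

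In endothelial-gated cells Rdh10 and Rara had intervals that overlapped those of stromal-gated cells, and Cyp26b1 and Aldh1a1 were lower than there in 16-week db/db and HFD. Cyp26b1 was 2.96 CPM in 16-week db/db (0.961 to 6.91) and 16.4 CPM in HFD (13.2 to 20.1), Rdh10 7.1 and 15.7 CPM, Rara 17.2 and 29.7 CPM, Aldh1a1 1.18 and 3.03 CPM and Aldh1a3 1.18 and 3.56 CPM. Rbp4 had no UMI in 16-week db/db and was 7.48 CPM in HFD. Stromal markers summed to 27.2 and 190 CPM in these cells and brown adipocyte markers to 6.51 and 495 CPM, higher in HFD as the genes were; their part was not tested. Haemoglobin transcripts took 89919 CPM of the 16-week db/db endothelial gate, which lowers every other CPM there.

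Other genes of the pathway were read from lists in stromal-gated cells. Of the uptake, transport and binding genes described here, Fabp5 and Rbp7 were higher past the limit in each obese library. Ttr, the partner of the retinol carrier, was lower in each. Of all genes, 5.01%, 11.4% and 12.1% were higher and 1.95%, 14.3% and 6.05% lower in 8-week db/db, 16-week db/db and HFD. From WT to HFD, 7 genes including Ttr summed to 434, 126, 78.2 and 62.9 CPM over all cells. In the stromal gate they summed to 99.2, 233, 460 and 203 CPM. The part of RNA from other cells in stromal Ttr was not tested. Fabp5, a fatty acid-binding protein that also carries retinoic acid, was 8.49 CPM in WT, 62.8 in 8-week db/db, 229 in 16-week db/db and 146 in HFD, beside 71.9, 906, 2122 and 1404 CPM in the monocyte/macrophage gate; the part of RNA from those cells was not tested. Rbp7 was 0.175, 2.57, 5.55 and 24.6 CPM, and it stood at 883 to 1794 CPM in endothelial-gated cells of the obese libraries; the summed endothelial markers in the stromal gate were in the same order, at 4.49, 23.0, 53.6 and 163 CPM with 1 of 8 at 0 in WT, and their part was not tested.

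Of 25 conversion and storage genes, none passed the limit in 8-week db/db out of 15 tested, and 1 was higher and 2 lower in both 16-week db/db (of 14) and HFD (of 15), where 6.96%, 25.7% and 18.2% of all genes passed. Dhrs3, a retinal reductase that returns retinal to retinol, was 45.6, 73.8, 47.3 and 142 CPM, with a log2 ratio of 1.64 (1.52 to 1.75) in HFD. In the Col15a1 Col4a1 subset it was 78.4, 90.8, 44.5 and 155 CPM. In the monocyte/macrophage gate it was 322, 265, 121 and 399 CPM, and the part of RNA from those cells was not tested. Dhrs9, a retinol dehydrogenase, was 22.3, 15.8, 1.69 and 2.89 CPM. Over the whole gate it was lower by log2 ratios of -3.72 (-5.04 to -2.67) in 16-week db/db and -2.94 (-3.61 to -2.35) in HFD. Its level followed the subsets, whose shares differed between libraries. In the Pi16 Dpp4 subset it was 26.3 CPM in WT, 25.3 in 8-week db/db and 6.65 (4 UMIs) in HFD. In the Col15a1 Col4a1 subset it was 4.25, 8.33, 1.93 and 2.84 CPM, and there the intervals of WT, 16-week db/db and HFD overlapped. Adh1, an alcohol dehydrogenase that oxidises retinol, was 57.7, 65.8, 113 and 88.0 CPM. Dhrs4 was past the limit in 16-week db/db alone, at 43.7 CPM against 21.1 CPM in WT. Adh5 and Rdh14 stayed within 2-fold, at 38.4 to 61.5 CPM and 15.7 to 24.4 CPM.

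Of 8 receptor and cofactor genes, 7 had enough UMIs, none passed in 8-week db/db, and 1, the third retinoic acid receptor Rarg, was lower in 16-week db/db and in HFD, where 14.3% and 6.05% of all genes were lower. Rarg stood at 75.5 CPM in WT (72.6 to 78.5), 52.9 CPM in 8-week db/db (50.2 to 55.7), 35.5 CPM in 16-week db/db and 26.3 CPM in HFD (22.8 to 30.1). The intervals of the WT and 8-week db/db libraries lay apart from each other and above the other two, whose intervals met. Its log2 ratios to WT were -0.51 (-0.61 to -0.42), -1.09 (-1.34 to -0.85) and -1.52 (-1.73 to -1.32). In the Col15a1 Col4a1 subset it was 53.2, 44.3, 34.8 and 23.9 CPM, so the order held there. The partner receptors Rxra (25.4 to 33.7 CPM) and Rxrb (17.1 to 24.2 CPM) stayed within 2-fold, as did the cofactors Ncor1 and Nrip1.

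Of other genes known to respond to retinoic acid, Tgm2 was higher past the limit in each obese library and Dhrs3 in HFD. Of all genes, 5.01% in 8-week db/db, 11.4% in 16-week db/db and 12.1% in HFD were higher past it. Since Tgm2 was named after its values were seen, this is a description. Tgm2, a transglutaminase, was 3.76, 10.9, 9.65 and 15.7 CPM in WT, 8-week db/db, 16-week db/db and HFD. Rarres2, which encodes the adipokine chemerin, was 1018, 960, 1060 and 1379 CPM. The other breakdown enzymes were at the floor, with 1, 1, 3 and 8 Cyp26a1 UMIs and 0, 0, 0 and 1 Cyp26c1 UMIs over all cells, as were the retinol receptor Stra6 (1, 5, 0 and 1 UMIs) and the storage enzyme Lrat (2, 4, 3 and 3 UMIs).

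Genes with the most similar pattern were sought over 25 gate and library classes of at least 50 cells, by Pearson correlation of log2(CPM + 1). These classes share libraries, and subsets lie within the stromal gate, so r is a description. For Aldh1a1 they were Rhobtb3 (r = 0.984), Wnt5a and Entpd2, for Aldh1a3 4930404H11Rik (0.963), Duoxa1 and Duox1, and for Cyp26b1 Adam12 (0.939), Aoc3 and Ednra. Aldh1a2 was closest to Tlr1 (0.930), Ciita and H2-Eb1. Rdh10 was closest to Cpne8 (0.919), Aifm2 and Myh10, and Rarb to Ttc23 (0.950), Armcx1 and Arhgap28. The lowest best correlations were those of Rbp4 with Clec11a (0.877, then Cntfr and Lsamp) and of Rara with Trem1 (0.835, then Ndel1 and Dmxl2).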

How the data were processed

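Single-cell 3' RNA sequencing (10x Genomics) of the stromal vascular fraction of brown adipose tissue was analysed, 1 library per group. The deposited matrices hold raw UMI counts per gene and cell barcode, made by the authors with Cell Ranger (7.1.0 in the submitters' processing notes, 6.0.0 in the file headers) on mm10. Of the gene identifiers, 99.6% were found in the GRCm38 annotation used for positions.

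Following the limits in the study's methods, kept cells had between 250 and 6000 genes, between 500 and 30000 UMIs, and less than 15% of UMIs from mitochondrial genes (Python 3.11.15, numpy 2.4.6, scipy 1.17.1), which left 26558173 to 53420105 UMIs per library. Doublets were kept in the main analysis; scanpy 1.11.5 (Scrublet) scores served for an alternative, because its automatic threshold marked none of 11648 cells in 8-week db/db. UMIs were summed over gated cells and divided by all UMIs of the gate (CPM). Intervals are exact at 95% (Poisson for levels, Clopper-Pearson for shares, conditional binomial for ratios); a count of 0 was given a floor of 3 counts. Ratios to WT are of CPM unless 1 CPM is said to be added. The scripts were tested on simulated data. Figures used matplotlib 3.10.9.

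The members, gates, pathway lists and tests were chosen with earlier results of these data known. Named genes were all members; from each pathway list, genes with at least 20 CPM in stromal-gated cells of some library (the 6 highest where more), besides Aldh1a7; and for each member with at least 200 UMIs, the 3 genes of highest correlation. Bco2, Ttr, Tgm2 and the breakdown genes at the floor were named after their values were seen, as were genes compared between cells with and without a member. The group sizes allow no test; alternatives are given in the closing section. Some results of the pathway lists and gates are not reported here.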

Additional observations from a re-analysis of the deposited data

How the results depend on the processing

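Each value was recomputed with other cell filters, gate limits, scalings, thinning and subset weights. Of 286 recomputed stromal ratios to WT, 236 stayed within the counting error of the reported value, and 27 had another sign, 18 of them among the 44 with other subset weights, in 6 genes (all but Aldh1a2 and Cyp26b1). Of ratios past the 2-fold limit, 3 changed sign, all of Aldh1a3: with the unweighted mean of the stromal subsets its log2 ratio was 0.58 in 16-week db/db and 0.92 in HFD, and with the subset shares of WT 0.50 in HFD, against -4.56 and -1.74 with 1 CPM added. Both alternatives give the few cells of the Pi16 Dpp4 subset more weight by construction. Cyp26b1 was higher than WT under every alternative run, between 1.42 and 2.48 in 8-week db/db, 2.70 and 4.40 in 16-week db/db and 1.11 and 1.95 in HFD. These alternatives combine subsets, and within the Col15a1 Col4a1 subset the HFD level of 57.4 CPM overlapped that of WT, 54.4 CPM. The unweighted mean in HFD also takes in 7 Cyp26b1 UMIs in 19 cells of the Cilp Eln Apod subset. The number of members past the limit was 1 under all alternatives in 8-week db/db and moved by over 1.5 times once, to 5 in HFD at a fold limit of 1.5. The members that passed were not always the same. With the subset shares of WT in 16-week db/db, Aldh1a3 (-0.02) no longer passed, and Rarb (-1.50) and Rbp4 (-1.67) did. With the unweighted mean in HFD, Aldh1a3 (0.92) no longer passed and Rbp4 (-1.33) did. Of 329 levels by gate, 304 stayed within their interval; of 64 shares of cells, 53 moved with the depth of thinning.

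Depth limits Aldh1a3, Rarb, Rdh10 and Rbp4 in 16-week db/db, which rest on 21 to 46 stromal UMIs, and Aldh1a2, which has 0 there. No paired analysis was possible because each group is 1 library and the labels carry no replicate number.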

Other observations

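The 135 T cell-gated cells of all libraries held 11 Rara UMIs, 2 of Aldh1a3, 1 each of Aldh1a2 and Cyp26b1, and none of Aldh1a1, Rdh10, Rarb or Rbp4. Cells that entered no gate numbered 402, 2492, 839 and 1119 in WT, 8-week db/db, 16-week db/db and HFD; in them Cyp26b1 was 7.07, 29.9, 35.1 and 18.2 CPM, Aldh1a3 58.9, 33.9, 0.433 and 8.57 CPM, and Aldh1a2 18.3, 16.7, 0 and 17.3 CPM, the same order for Cyp26b1 as over all cells. Aldh1a7 had 17 of its 35 HFD UMIs in the endothelial gate.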
